A study of Mus musculus with 20 samples.

Results

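A group of 10 homeodomain transcription factor genes that pattern the dorsal nervous system or mark sensory and related neurons was followed through neuronal differentiation of HPRT knockdown and control cells. They were Pax3, Pax7, Tlx3, Lbx1, Pou4f1, Pou4f2, Isl1, Lhx9, Barhl1 and Otp, found by their gene symbols, 10 of the 37561 genes shared by all tables. Some of them were chosen by their ratios between the lines, which were among the lowest, so those ratios are given below as a description and carry no test. The cells were ESD3 mouse embryonic stem cells of strain 129s2/SvPas, kept on mouse embryo fibroblast feeders before differentiation. The control line had received a retroviral shRNA against luciferase and the HPRT knockdown line a retroviral shRNA against HPRT, and both were differentiated as spherical neural masses (SNM), floating balls of neural precursor cells, toward dopaminergic neurons. Each line was sampled daily from day 0 to day 4 and every second day from then to day 14. There was 1 RNA-Seq library per line and day, made from RNA that the study pooled within that line and day, and 20 libraries in all. The 10 libraries of a line are thus successive collections of 1 infected, selected cell line, and the spread between days is the only measure of error. It holds change with time as well as technical error, and a p-value from it does not measure differences between independent lines.

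These proteins bind DNA through a homeodomain and switch on the gene programs of particular neuron classes. In the embryonic neural tube, signals from the roof plate and Shh from the floor plate set up opposed dorsal and ventral domains, and the Pax3 and Pax7 proteins mark dorsal progenitors and neural crest. Tlx3 and Lbx1 direct opposite transmitter choices in dorsal spinal interneurons, Pou4f1 and Isl1 drive sensory neuron programs, and Pou4f2 is best known from retinal ganglion cells. Lhx9 and Barhl1 act in commissural and other dorsal neurons, while Otp specifies neurosecretory neurons of the hypothalamus, so the group is not purely dorsal. Pax3, Pax7 and Lbx1 are also known from skeletal muscle precursors. In RNA from whole cultures, fewer cells of a type and less RNA per cell cannot be told apart.

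On the mm9 build (NCBIM37) all 10 are protein-coding genes whose annotated spans overlap no other annotated gene. They lie at chr1:78097842-78193709 (Pax3), chr4:139292977-139389445 (Pax7), chr11:33100752-33103588 (Tlx3), chr19:45307178-45310301 (Lbx1), chr14:104862737-104867216 (Pou4f1), chr8:80956908-80960551 (Pou4f2), chr13:117088478-117099896 (Isl1), chr1:140721763-140745153 (Lhx9), chr2:28763199-28772188 (Barhl1) and chr13:95645582-95653636 (Otp). Otp is on the plus strand and the other members are on the minus strand.

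RefSeq promoters (GRCm38.p6, 250 bases before to 50 after the transcript start) were matched for 8 members, with 9 starts in all. Those of 3 are shown, for the member with the lowest mean ratio (Pax7), the member whose HPRT knockdown level jumped most between days (Tlx3) and the member whose ratio lay nearest to 0 (Isl1). Capitals mark TAAT, the core that homeodomains bind, and GGGCGG, the core of GC boxes, each on either strand.
Pax7, chr4:139832919-139833218, minus strand: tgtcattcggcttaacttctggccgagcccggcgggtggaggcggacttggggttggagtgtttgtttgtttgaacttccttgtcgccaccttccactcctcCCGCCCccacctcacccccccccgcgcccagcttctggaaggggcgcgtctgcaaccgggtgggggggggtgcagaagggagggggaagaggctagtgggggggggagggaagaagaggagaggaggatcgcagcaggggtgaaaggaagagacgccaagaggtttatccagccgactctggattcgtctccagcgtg
Tlx3, chr11:33203539-33203838, minus strand: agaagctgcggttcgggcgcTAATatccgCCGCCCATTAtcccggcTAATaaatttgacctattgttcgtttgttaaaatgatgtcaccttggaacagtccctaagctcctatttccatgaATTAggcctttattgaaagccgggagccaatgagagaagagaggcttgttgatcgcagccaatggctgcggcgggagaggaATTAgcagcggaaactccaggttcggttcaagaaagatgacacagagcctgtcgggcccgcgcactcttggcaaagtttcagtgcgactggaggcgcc
Isl1, chr13:116309639-116309938, minus strand: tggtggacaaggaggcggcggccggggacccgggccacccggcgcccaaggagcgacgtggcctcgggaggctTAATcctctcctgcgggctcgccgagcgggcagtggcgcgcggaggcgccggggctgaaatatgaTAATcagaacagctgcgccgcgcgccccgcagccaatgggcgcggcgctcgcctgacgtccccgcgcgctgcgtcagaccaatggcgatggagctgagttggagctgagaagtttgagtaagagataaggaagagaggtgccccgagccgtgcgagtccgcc
TAAT was found 5 times in the Tlx3 promoter, 2 times in that of Isl1 and 0 times in that of Pax7. It was present in 6 of the 9 member promoters and in 58.0% of 32851 promoters, while GGGCGG was present in 5 of the 9 and in 35.7% of all. Also searched on both strands were TATAAA, found in 0 of the 9 and 13.6% of all promoters, CCAAT, in 4 of the 9 and 37.4% of all, and CANNTG, in 6 of the 9 and 72.3% of all. CAGCTG, a form of CANNTG, was in 4 of the 9 and 16.3% of all promoters. GC content ran from 50.3% in a Barhl1 promoter to 78.3% in that of Pou4f1, beside a median of 52.7% over all promoters. The letters are a description of these windows and say nothing of binding.

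The deposited tables each hold log2 normalized values for 2 libraries, scaled so that a gene's reads can be worked back from the differences between tables. Levels below are these recovered reads divided by a library's relative size factor, which ran from 0.782 to 1.52, and are compared only within a gene. Ratios are HPRT knockdown minus control on the log2 scale, as deposited. Values under 1 normalized count were held at 1, so a ratio against such a library understates the difference. As a check of the labels, Hprt was at 543 to 924 normalized reads in the 10 control libraries (median 699) and at 20.9 to 143 in the 10 HPRT knockdown libraries (median 39.1), from 17.4% of control on day 0 to 3.12% on day 14.

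**Figure D1:**
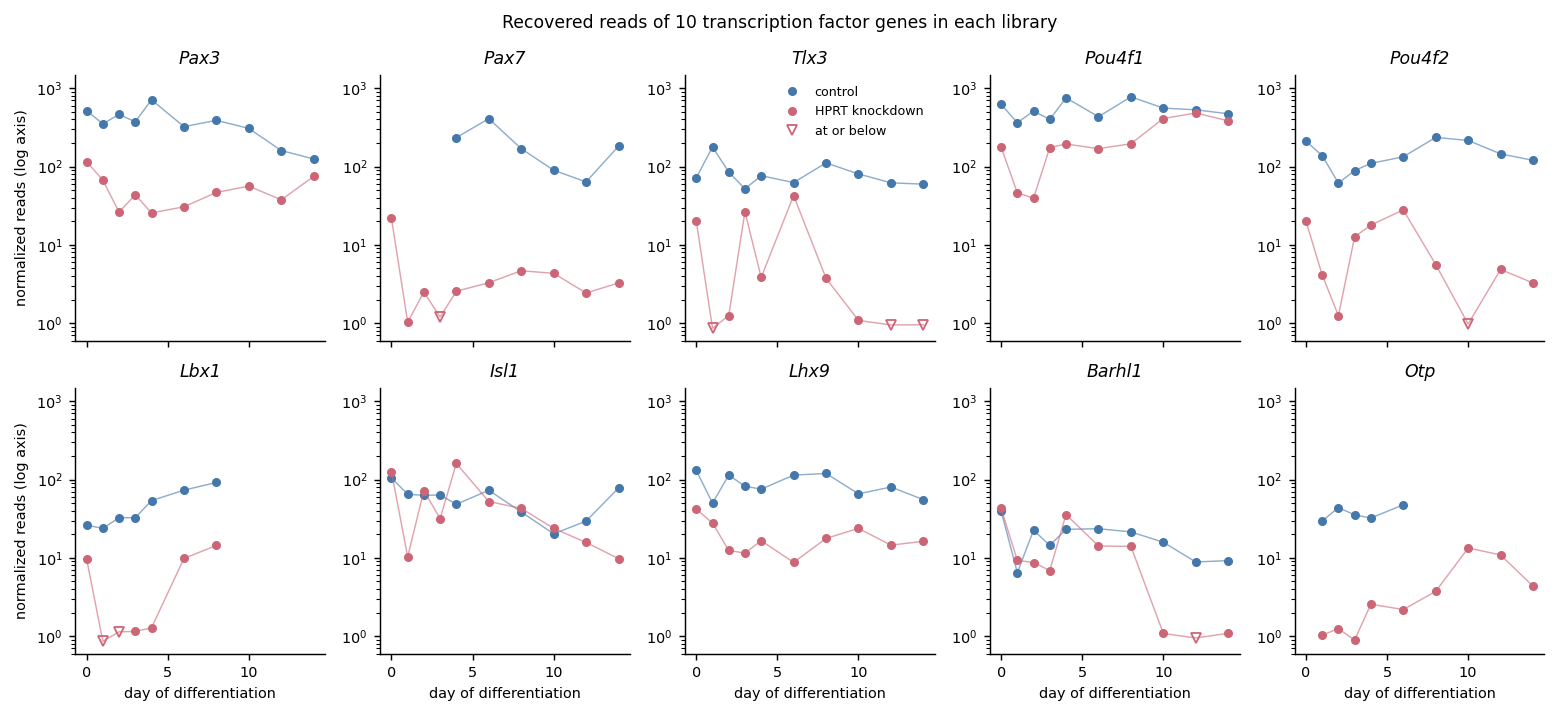
Normalized reads (log axis) of each gene against day of differentiation, in control (blue) and HPRT knockdown (red) libraries, 1 point per library; open triangles are upper limits. Points are missing for Pax7, Lbx1 and Otp where the tables gave no single read number. Pax3 stayed at 125 to 713 in control and 25.6 to 116 in HPRT knockdown, while the Isl1 curves crossed.

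Pax3, the dorsal progenitor and neural crest factor, was lower in HPRT knockdown on all 10 days. Its level in the control libraries ran from 125 normalized reads on day 14 through a median of 363 to 713 on day 4. The HPRT knockdown libraries ran from 25.6 on day 4 through a median of 45.2 to 116 on day 0, so no HPRT knockdown library reached the lowest control library. The ratio was lowest on day 4, at -4.80 (95% counting interval -5.52 to -4.16, from 20 against 707 reads), and nearest to 0 on day 14, at -0.73 (-1.16 to -0.31, from 69 against 149 reads). All 10 counting intervals, which are exact binomial intervals and cover counting error only, lay below 0.

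Pax7, the paralog of Pax3, was the member with the lowest mean ratio. Its reads could be worked out in 6 control libraries, from day 4 on, where they ran from 63.7 normalized reads on day 12 through a median of 176 to 410 on day 6. In HPRT knockdown, 30 reads were counted on day 0 and at most 5 on each of the other 9 days. The ratio was -3.97 on day 0, between -7.64 and -6.52 on days 1 to 4, -6.99 on day 6 and between -5.80 and -4.37 on days 8 to 14. With so few reads the depth of the ratio after day 0 is loosely known. On day 12, with 2 reads against 86.3, its counting interval was -7.79 to -2.82. On days 0 to 3 no control reads could be worked out, so those ratios have no counting interval and are less certain.

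Skeletal muscle genes moved with the lines on several of these days, and their values stand here because Pax3, Pax7 and Lbx1 are also expressed by muscle precursors. Of 11 muscle genes listed, 6 passed the level filter and all 6 were called lower in HPRT knockdown, with a median mean ratio of -4.85. The summed level of Myf5, Myf6, Myod1 and Myog ran from 8.81 on day 10 to 2743 on day 6 in control, the day on which Pax7 was also highest among its 6 control values, and from 2.30 on day 3 to 135 on day 0 in HPRT knockdown. From day 4 to day 6 in control, that sum went from 14.1 to 2743 and Pax7 from 234 to 410. Pax3 in control fell over the same days, from 713 to 324. Day 6 is the day that the study set aside as an outlier. Over the 10 HPRT knockdown libraries Myf6 had 1 read and Myf5 3 reads. On day 4 the sum was 14.1 in control and 11.5 in HPRT knockdown, while 9 of the 11 listed genes were lower in HPRT knockdown, with a median ratio of -1.25 and a lowest ratio of -3.18. On that day the ratios were -4.80 for Pax3, -6.52 for Pax7 and -5.40 for Lbx1. On day 0 the sum was higher in HPRT knockdown (135 against 60.2) and 0 of the 11 genes were lower (median 1.31), and the ratios were -2.14 for Pax3, -3.97 for Pax7 and -1.42 for Lbx1. The part of muscle cells in the ratios of these genes was not tested.

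Tlx3, which specifies excitatory dorsal horn and some cranial sensory neurons, moved up and down repeatedly in HPRT knockdown. Control libraries held 51.9 to 178 normalized reads, with a median of 74.2, above every HPRT knockdown library. HPRT knockdown libraries held 27.6 reads on day 0, 23 on day 3 and 39 on day 6, but at most 4 on each of the other 7 days, and 3 of those were at or below the floor. In HPRT knockdown the level was 21.2-fold higher on day 3 than on day 2 (95% counting interval 3.44 to 874, from 23 reads against 1). It was then 6.89-fold lower on day 4 (2.08 to 35.9), 11.1-fold higher on day 6 (3.54 to 56.3) and 11.6-fold lower on day 8 (4.12 to 44.0). The changes into and out of day 6 rest on the day that the study set aside as an outlier. On day 1, with 192 reads in control, the control level was at least 58.4-fold higher against a floor of 3 reads in the HPRT knockdown library. Counting error of the control reads is left out of that fold. The ratio was -0.97 on day 3 and -0.58 on day 6, where its counting interval of -1.20 to 0.03 included 0, and lay between -7.52 and -1.83 on the other 8 days.

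Lbx1, which opposes Tlx3 in dorsal interneurons, was lower in HPRT knockdown on all 10 days, with the ratio moving toward 0 late. Where reads could be worked out, on days 0 to 8, control ran from 23.8 normalized reads on day 1 to 92.0 on day 8. HPRT knockdown held 13.3 reads on day 0, at most 1 on each of days 1 to 4, 9 on day 6 and 15.4 on day 8. The ratio was -1.42 on day 0, -4.62 to -5.40 on days 1 to 4, -2.92 on day 6 and -2.66 on day 8. On days 10, 12 and 14 it was -1.33, -1.01 and -1.05, less certain because no reads could be worked out.

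Pou4f1, the Brn3a factor of sensory ganglia, began lower in HPRT knockdown and approached the control level by day 12. Control libraries held 363 to 778 normalized reads, with a median of 522. The HPRT knockdown libraries fell from 177 on day 0 to 46.2 on day 1 and 39.6 on day 2, stood at 170 to 196 on days 3 to 8, and at 384 to 484 on days 10 to 14, so the lines overlapped late in the series. The ratio was -3.69 on day 2 (-4.24 to -3.15) and -0.14 on day 12 (-0.32 to 0.04), and day 12 was the single day whose counting interval included 0.

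Its paralog Pou4f2 went the other way late. Control libraries held 61.5 to 236 normalized reads, and HPRT knockdown libraries held at most 27.96, so the lines did not overlap. HPRT knockdown reads numbered 27.8 on day 0, 4 on day 1, 1 on day 2, then 11, 14 and 25.55 on days 3, 4 and 6, and at most 6 on each of the last 4 days. On day 10 the HPRT knockdown library was at or below 0.9 reads while the control library held 245. The control level was thus at least 66.2-fold higher against a floor of 3 reads, with counting error of the control reads left out. The mean ratio of Pou4f1 was -2.46 over days 1 to 4 and -0.71 over days 8 to 14, while that of Pou4f2 was -4.03 and -5.82 over the same days.

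Isl1, a LIM homeodomain factor of sensory and motor neurons, had no steady direction. Control libraries held 20.3 to 105 normalized reads and HPRT knockdown libraries 9.78 to 161, so the lines overlapped. The ratio was below 0 on 5 of 10 days, lowest on day 14 at -2.99 (-4.16 to -2.003) and highest on day 4 at 1.73 (1.24 to 2.25, from 126 against 48 reads). Counting intervals lay below 0 on 3 days, above 0 on 1 day and included 0 on the other 6.

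Lhx9, a LIM homeodomain factor of dorsal commissural neurons, was lower in HPRT knockdown on all 10 days with the smallest day-to-day spread of the members. Control libraries held 50.0 to 131 normalized reads, with a median of 81.5, and HPRT knockdown libraries 8.75 to 42.1, with a median of 16.5, so the lines did not overlap. The ratio ran from -3.73 on day 6 to -0.87 on day 1, and all 10 counting intervals lay below 0.

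Barhl1, a BarH-like homeobox factor of dorsal and cerebellar granule neuron lineages, did not pass the level filter used for testing. Control libraries held 7 to 37 reads. HPRT knockdown libraries held 59.1 reads on day 0, 6 to 28 on days 1 to 8, and at most 1 on each of days 10, 12 and 14. Its ratio was between -1.36 and 0.63 on days 0 to 8 and between -3.87 and -3.08 on days 10 to 14. On day 4 the HPRT knockdown level rose 5.19-fold over day 3, beside a 5.07-fold rise of Isl1 in the same step.

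Otp, the hypothalamic factor, was lower in HPRT knockdown on all 10 days, but its tables disagreed with each other. Reads could be worked out in 5 control libraries, days 1 to 6, at 29.7 to 47.7 normalized reads, and in 9 HPRT knockdown libraries, at 0.891 to 13.4. The ratio was -1.32 on day 0 and between -6.34 and -3.66 on the later days. Around the loop of the 4 tables of days 6 and 8 the Otp values failed to return to their start by 1.10 on the log2 scale, against 0.0942 for genes such as Pax3 that came from 1 read number per library. The gap was 0.557 for days 0 and 1, 0.808 for days 8 and 10 and 0.529 for days 10 and 12. Control steps of Otp, including a 13.2-fold rise from day 6 to day 8, are therefore less certain than those of most other members. So are its ratios outside days 1 to 6, and with them its mean ratio, and its HPRT knockdown step from day 0 to day 1.

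**Figure D2:**
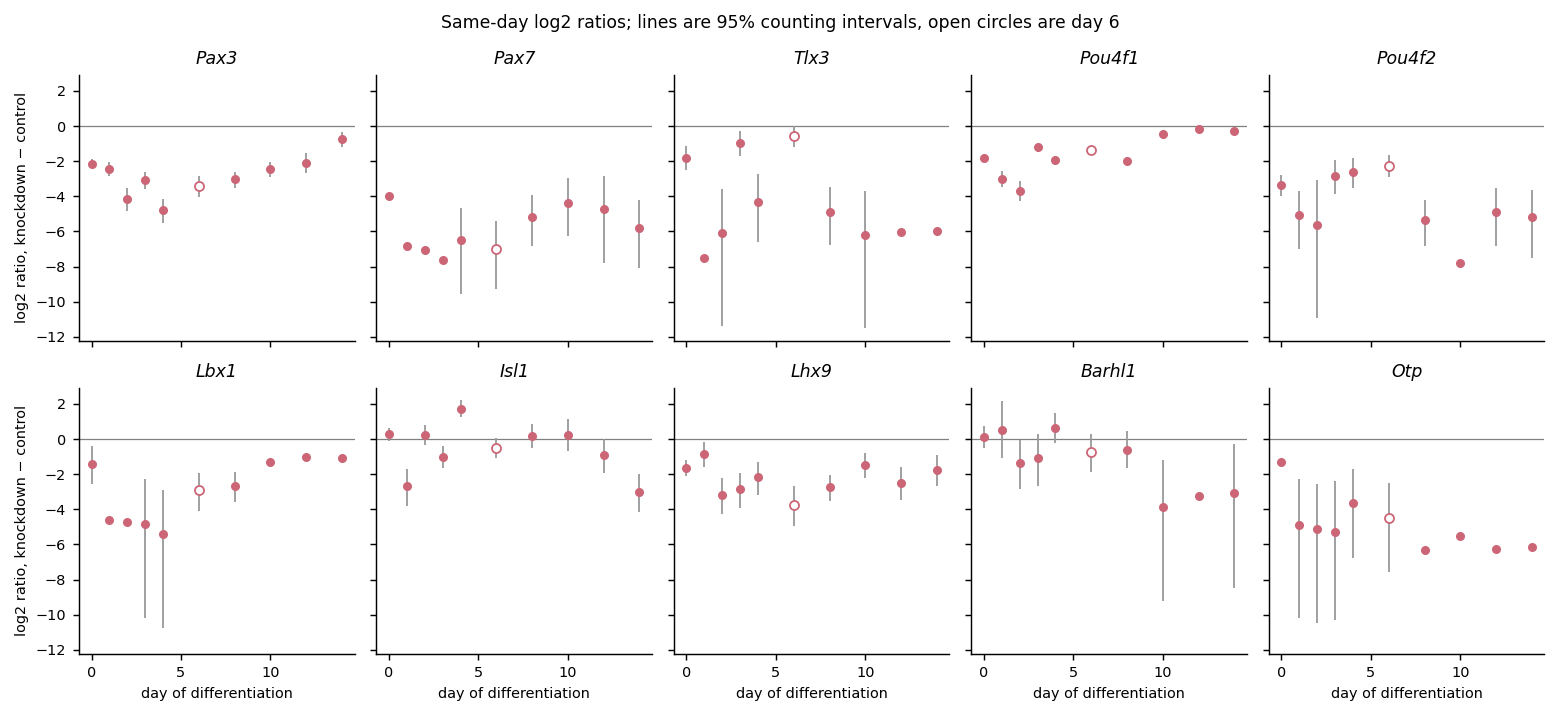
Log2 ratio of HPRT knockdown minus control (y axis) against day (x axis) for each gene, with 95% counting intervals as vertical lines where reads were known in both libraries. Day 6 is an open circle. Pou4f1 moved from -3.69 on day 2 to -0.14 on day 12, Tlx3 came near 0 on days 3 and 6, and Isl1 lay on both sides of 0.

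Averaged over 9 days (day 6, which the study left out of its pathway analysis, is given as a value only), the members ran from Pax7 at -5.79 ± 1.304 (SD, n = 9 here and below) to Isl1 at -0.55 ± 1.52. Between them stood Otp at -4.95 ± 1.60 (from tables that disagreed as described), Tlx3 at -4.87 ± 2.17 and Pou4f2 at -4.75 ± 1.62. Lbx1 followed at -3.001 ± 1.86, Pax3 at -2.77 ± 1.19, Lhx9 at -2.13 ± 0.75, Pou4f1 at -1.61 ± 1.22 and Barhl1 at -1.33 ± 1.70. Neighbours in this order lay closer together than the SD of either, except Pou4f2 and Lbx1, whose distance was larger than the SD of Pou4f2 and smaller than that of Lbx1. On day 6 the ratios ran from -6.99 for Pax7 to -0.50 for Isl1, and Tlx3, at -0.58, stood farthest from its own mean. Of the 10 members, 8 were lower on all 9 days, as were 15.3% of the 13440 genes past the level filter. In levels fitted to all tables together, 6 members had every HPRT knockdown library below every control library, against 0.677% of the genes past the filter. These counts use the contrast by which members were chosen and support nothing about the group.

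Days 0 and 1 were then set side by side within each line. The HPRT knockdown levels of day 1 also enter the ratios by which members were chosen, so these steps are a description and support nothing about the group. In HPRT knockdown all 10 members were lower on day 1 than on day 0, and 8 of them at least 2-fold, against 10.0% of the 13440 genes. The median log2 step was -2.87 for the members and 0.017 for all genes. Tlx3 and Lbx1 were at or below the floor on day 1. Against 3 reads Tlx3 was at least 6.43-fold lower and Lbx1 at least 3.11-fold, with counting error of the day 0 reads left out. Pax7, from 30 reads to 1, was 20.8-fold lower with a 95% counting interval of 3.50 to 859. Otp, also with 1 read on day 1, was 13.6-fold lower, in tables that disagreed as described. Isl1 was 12.1-fold lower (6.49 to 25.9), Pou4f2 4.83-fold (1.72 to 19.3), Barhl1 4.57-fold (2.27 to 10.6) and Pou4f1 3.79-fold (2.76 to 5.36). Pax3, at 1.71-fold (1.29 to 2.34), and Lhx9, at 1.49-fold (0.94 to 2.48), stayed under 2-fold. In control 9 members were lower on day 1, with a median log2 step of -0.74 for the members and 0.0028 for all genes. Only Barhl1 (6.19-fold), Lhx9 (2.65-fold) and Pax7 (2.50-fold) were lower by at least 2-fold, against 3.41% of genes, and Tlx3 was 2.45-fold higher. For the Pax7 step no control reads could be worked out. Each step compares 1 library with 1 library, so it has no replicate check. In the other 8 steps of HPRT knockdown 0 to 3 of the 10 members were at least 2-fold lower, beside 5.04, 2.31, 4.72, 5.20, 4.81, 7.78, 3.42 and 2.57% of genes from the step into day 2 to the step into day 14. Members also rose: 3 were at least 2-fold higher in the step into day 3 (2 lower), beside 6.08% of genes. In the step into day 4 there were 4 higher (1 lower), beside 4.46% of genes. The summed level of the 4 muscle regulators went in the same step from 135 to 4.13 in HPRT knockdown and from 60.2 to 282 in control. Most other lists were lower on day 1 as well, summed over the listed genes whose reads could be worked out. In HPRT knockdown 11 dorsal progenitor genes went from 2799 to 1642 (4085 to 2911 in control) and 8 dorsal interneuron genes from 604 to 488 (837 to 375 in control). There 16 sensory neuron genes went from 2233 to 1649 (2832 to 2299 in control) and 5 neural crest genes from 1788 to 1541 (3810 to 2074 in control). The 5 LIM partner genes rose from 1368 to 1901 in HPRT knockdown and fell from 1309 to 814 in control. In HPRT knockdown 3 general neuronal genes went from 1466 to 854 (2943 to 1009 in control), 4 ventral neural tube genes from 1435 to 480 (378 to 292 in control), 4 retinal ganglion cell genes from 144 to 26.8 (170 to 144 in control) and 6 neurosecretory genes from 425 to 201 (786 to 384 in control). The part of these cell types in the change of the members was not tested. Hprt itself stood at 143 normalized reads on day 0 and 138 on day 1.

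**Figure D3:**
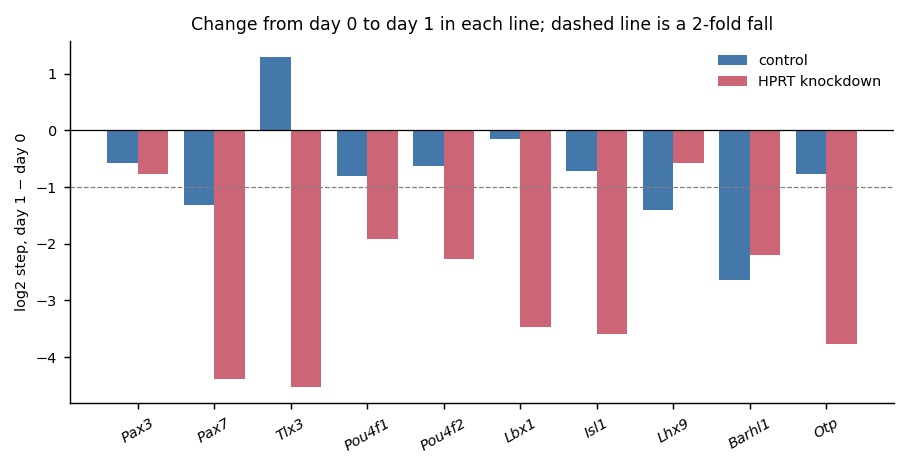
Log2 change from day 0 to day 1 (y axis) of each gene, as bars for control (blue) and HPRT knockdown (red), 1 library per day; the dashed line marks a 2-fold fall. In HPRT knockdown 8 of 10 bars passed it and in control 3, and only Tlx3 in control went up, by 1.29. The HPRT knockdown bars of Tlx3 and Lbx1 rest on day 1 values held at the floor.

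Change over the whole series was tested within each line with limma, as a slope of the log2 level on day over 9 days, adjusted over 13440 genes. In control, Pax3 fell by 0.13 log2 units per day (SE 0.030, adjusted p = 0.0079), and Lbx1 rose by 0.10 (SE 0.020, adjusted p = 0.0036). Otp in control rose by 0.30 (SE 0.073, adjusted p = 0.010), in tables that disagreed as described. All control slopes include the step from day 3 to day 4, whose table was at odds with all others. With levels fitted without that table, the slopes of Pax3, Lbx1 and Otp were -0.13, 0.11 and 0.32 (limma adjusted p = 0.0098, 0.0037 and 0.0050). Thus 1 of 9 members tested fell and 2 rose in control, beside 23.8% of all genes falling and 19.6% rising. In HPRT knockdown, Pou4f1 rose by 0.19 per day (SE 0.053, adjusted p = 0.046), beside 7.34% of genes rising and 5.42% falling. The Lbx1 slope there was 0.34 (SE 0.094, adjusted p = 0.044), but with at most 1 read on each of days 1 to 4 it runs on values at or near the floor. Pax7, Tlx3, Otp and Pou4f2 also had at most 5 reads in 5 to 9 HPRT knockdown libraries, so no count of members is read from the slopes of that line. The slopes of Pax7, Tlx3, Pou4f2, Isl1 and Lhx9 were not called in either line, and lay between -0.21 and 0.03, and those of Pax3 and Otp in HPRT knockdown and of Pou4f1 in control were not called either. Both HPRT knockdown calls were lost when any 1 of days 1, 2, 3, 4, 8, 10, 12 or 14 was left out, with adjusted p from 0.0573 to 0.155 for Lbx1 and from 0.0573 to 0.124 for Pou4f1 in limma. They were also lost without the level filter (limma adjusted p = 0.0716 and 0.0732) and on log2(day + 1) (0.259 and 0.162). The Pax3 call in control was lost without day 14 (limma adjusted p = 0.0532) and on log2(day + 1) (limma adjusted p = 0.0655). Whether a slope differed between the lines was not tested.

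**Figure D4:**
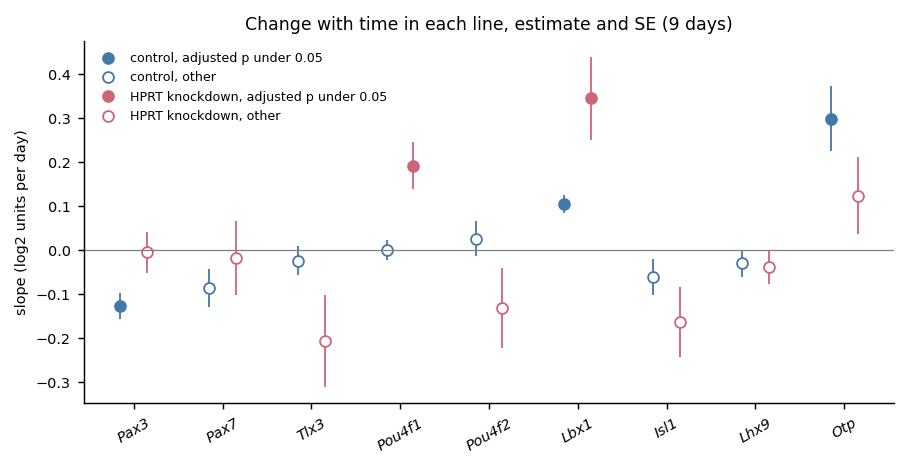
Slope in log2 units per day (y axis) of 9 genes in control (blue) and HPRT knockdown (red), with SE as vertical lines; filled points had a limma adjusted p under 0.05. Pax3 in control lay below 0, Lbx1 and Otp in control and Lbx1 and Pou4f1 in HPRT knockdown lay above it, Lbx1 in HPRT knockdown on values at or near the floor. Barhl1 was under the level filter and is not drawn.

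Genes that share a tissue or a partner with the members were read from 11 lists, with calls from limma on the 9 daily ratios. Over all 13440 genes 26.5% were called lower and 26.4% higher in HPRT knockdown, with a median mean ratio of 0.01, and the lists are read against that. Among dorsal progenitor genes, 6 of 10 tested were lower and 2 higher (median -0.73). Olig3, a dorsal interneuron progenitor factor, was at -3.41 ± 2.40 and lower on 9 of 9 days (limma adjusted p = 0.0030). The roof plate factor Lmx1a was higher, at 2.32 ± 1.01 on 9 of 9 days (limma adjusted p = 0.00026), as was Msx1 at 1.34 ± 1.00 (limma adjusted p = 0.0043); both are also known from midbrain dopaminergic progenitors. Of 8 dorsal interneuron genes tested, 5 were lower and 2 higher (median -1.88). Lhx1 was at -3.33 ± 1.36 and Tlx1, a paralog of Tlx3, at -3.19 ± 1.61, each lower on 9 of 9 days (limma adjusted p = 0.00018 and 0.00052). Barhl2, the paralog of Barhl1, was higher at 1.07 ± 0.70 on 8 of 9 days (limma adjusted p = 0.0023), and Lhx2, the paralog of Lhx9, at 0.74 ± 0.62 on 9 of 9 days (limma adjusted p = 0.0090).

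Sensory neuron genes were mixed, with 6 of 16 tested lower, 2 higher and 8 not called (median -0.40). Neurog1, which starts sensory neurogenesis, was at -3.60 ± 1.44, and Neurod4 at -3.06 ± 1.73, both on 9 of 9 days (limma adjusted p = 0.00017 and 0.00091). The neurotrophin receptors Ntrk2, at 1.13 ± 0.81, and Ntrk3, at 0.76 ± 0.36, were higher on 9 and 8 of 9 days (limma adjusted p = 0.0036 and 0.00062). In the neural crest list 3 of 9 genes were lower and 1 higher (median -0.44). Tfap2b stood at -3.72 ± 2.02, lower on 9 of 9 days (limma adjusted p = 0.00075), while Sox9 was at 0.67 ± 0.52 (limma adjusted p = 0.0062). Ventral neural tube genes moved the other way, with 0 of 13 lower and 9 higher (median 1.61). Nkx2-1, a ventral forebrain factor, was at 5.25 ± 2.37 and Shh, the ventral signal, at 3.59 ± 1.68, each higher on 9 of 9 days (limma adjusted p = 0.00029 and 0.00036). On day 6, outside these means, Olig3 (0.96), Ntrk2 (-0.98) and Sox9 (-0.71) lay on the other side of 0, and Nkx2-1 stood at 0.27.

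For the tissues in which Otp and Pou4f2 are best known, the neurosecretory list had 3 of 5 tested genes lower and 1 higher (median -0.77). The peptides Sst, at -4.73 ± 1.67, and Trh, at -3.16 ± 2.25, were lower on 9 of 9 days (limma adjusted p = 9.6e-05 and 0.0032). Fezf1 was higher at 1.60 ± 0.89 (limma adjusted p = 0.00090). Of the listed genes under the level filter, Oxt had 1 read in each line and Avp a mean ratio of 0. Sim1 and Bsx stood at 0.76 and 1.57, and Crh at -1.27. All 3 retinal ganglion cell genes tested were lower (median -1.501), among them Sncg at -1.69 ± 1.60 and Rbpms at -1.501 ± 0.78, though 0.03 on day 6 (limma adjusted p = 0.014 and 0.00067); Atoh7, which starts that lineage, had 1 read in each line. The lowest muscle genes were Myh3 at -5.68 ± 3.95 and Myl1 at -5.46 ± 3.72, lower on 8 of 9 days (limma adjusted p = 0.0027 and 0.0025). Partners of LIM factors were mostly not called, with 2 of 9 lower and 1 higher (median -0.07), namely Ssbp3 at -0.50 ± 0.51, Rlim at -0.42 ± 0.20 and Lmo4 at 0.75 ± 0.39 (limma adjusted p = 0.022, 0.0015 and 0.00091). General neuronal genes were lower as well, 8 of 12 with 0 higher (median -1.55), led by the neurofilament genes Nefl at -2.85 ± 1.301 and Ina at -2.79 ± 1.37, on 9 of 9 days (limma adjusted p = 0.00032 and 0.00046). Thus markers of neurons in general moved with the members, and their part in the ratios of the members was not tested. Of 6 fibroblast genes, which would mark feeder cells, 2 were lower and 0 higher (median -0.38), Lum at -1.07 ± 1.15 and Postn at -0.70 ± 0.68 (limma adjusted p = 0.025 and 0.017).

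**Figure D5:**
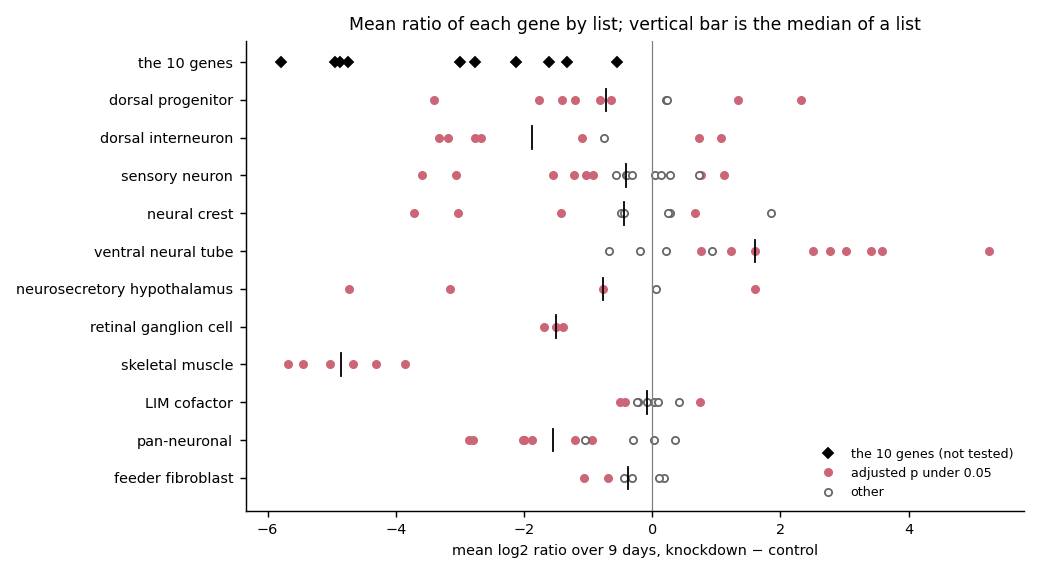
Mean log2 ratio over 9 days (x axis, HPRT knockdown minus control) of each gene, by list (y axis). Red points had a limma adjusted p under 0.05, open points did not, vertical bars are list medians, and black diamonds are the 10 members, which were not tested. The ventral list has its median at 1.61 and the muscle list at -4.85.

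The genes whose daily ratios were most like the median of the members over the 10 days were D130040H23Rik (Pearson r = 0.970), Zfp300 (0.955), Nr2c2 (0.926), Zfp33b (0.909) and Rhox9 (0.908). All 5 had mean ratios near 0, between -0.54 and 0.39, so they were alike in the shape and not in the size of the ratio. They were picked as the highest of all genes past the filter and share the libraries with the members, so r is a description.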

How the data were processed

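Total RNA of SNM cultures of both lines was sequenced with TruSeq v2 libraries on a HiSeq 2000, 20 libraries over 4 lanes (the lane of each library is not given in the sources used here). The authors processed reads with CASAVA 1.8.2 and ELAND on mm9, counted genes in Avadis NGS 1.3.1 and normalized with DESeq. The deposited values are log2 normalized counts, in 28 tables of 2 libraries each, 10 of a day and 18 of consecutive days of a line; the study states an average number of reads, and the strand setting and the depth of each library are not given in the sources used here. The members and lists were chosen with earlier results of these data known.

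From these tables, ratios were taken as deposited and levels within a line by adding steps. Tables were found to hold values under 1 normalized count at 1, and reads (in steps of 1/49 of a read) were worked back where 1 set of numbers met all tables of a run of days with under 0.01 chance solutions. Reads at or below the floor are upper limits. The control table of days 3 and 4, at odds with all others, was not used for working back reads but did enter the control slopes. Read intervals are exact binomial at 95% and cover counting error only. Folds against a library at the floor used a floor of 3 reads and took the reads of the other library without counting error. Of 37561 genes, 13440 had a typical log2 count of at least 4, gauged from the rounding of the deposited values. They were tested with limma 3.58.1 in R 4.3.3 (Benjamini-Hochberg, threshold 0.05): an intercept over the 9 daily ratios without day 6, and a slope on day in each line. A gene could pass on its control level: Pax7, Tlx3 and Otp passed with HPRT knockdown medians of 2.91, 2.49 and 2.56 normalized reads, and their slopes were still fitted in that line. The scripts were tested on simulated data. Alternatives were the filter, day 6, leaving out each day, centring, pairing, the time scale and how levels were built. Genes named were the members, Hprt, from each list up to 2 called genes with the highest and 2 with the lowest mean ratio, and the 5 genes most like the median of the members. Some genes picked by this rule are not reported here. The other muscle regulators, Atoh7 and the neurosecretory genes under the level filter were named after their values were seen. Levels were built from relative size factors of 0.782 to 1.52.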

Additional observations from a re-analysis of the deposited data

Results flagged for a closer look

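Of 30 series tested on the log2 scale for a distant sample (the 10 members' ratios and their normalized reads in each line), 1 was called by Dixon's test. Chance gives about 1 call in 20 series, so 1 call in 30 is no more than chance gives. It was Pax7 in HPRT knockdown on day 0, at 21.75 normalized reads against 1.03 to 4.67 in the other 9 libraries of that line. The day 3 value among these is an upper limit.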

How the results depend on the processing

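The mean ratio of each of the 10 members moved by less than 1 SD under all 117 alternative values (day 6 kept, each day left out, centring and, for 7 members, recovered reads with 0.5 normalized counts added; Pax7, Lbx1 and Otp lacked reads in some libraries). Keeping day 6 or leaving out 1 of 9 days can hardly move a mean by 1 SD, so those alternatives say little of stability. Counts of slopes called changed with the setting. In control 5828 genes became 3826 on log2(day + 1). In HPRT knockdown 1716 became 136 on that scale, and 208 to 2905 when 1 day was left out (208 without day 14, 425 without day 12, 751 without day 2, 859 without day 10, 2905 without day 0). Calls over the lists went from 62 to 30 at a level of at least 8, where 45 in place of 97 listed genes were tested. Of 252 alternative member slopes 22 lost a call, 5 gained one and 12 changed sign, none of the last called. Calls were gained for Pax7 in control without day 1 or 14 (limma adjusted p = 0.0369 and 0.0411), Isl1 in control without day 14 (limma adjusted p = 0.0048), Isl1 in HPRT knockdown without day 1 (limma adjusted p = 0.0256) and Otp in HPRT knockdown without day 0 (limma adjusted p = 0.0231). The sign of the Pou4f1 control slope was 0.0083 on log2(day + 1), 0.0026 with levels from all 28 tables and 0.0087 without the control table of days 3 and 4 (chosen after seeing the data), and it ran from -0.016 to 0.015 with 1 day left out. The Pax3 and Pax7 slopes in HPRT knockdown ran from -0.046 to 0.043 and from -0.066 to 0.094, and that of Tlx3 in control from -0.039 to 0.0050. The cause was not tested.

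Libraries of the same day are paired in the tables. Deviations of the pairs correlated at -0.0027 on day 0 and 0.142 to 0.430 on the other 8 days, and without the replicate block 5721 genes were called in place of 7108 (59 in place of 62 over the lists), with Barhl2, Lhx2 and Postn no longer called (limma adjusted p = 0.0979, 0.0878 and 0.245). The other named list genes kept their calls except Ssbp3 without day 12 (limma adjusted p = 0.0507) and Lum without day 10 or 12 (limma adjusted p = 0.0565 and 0.0577). With 1 library per line and day, low reads limit Pax7, Tlx3, Otp, Pou4f2, Lbx1 and Barhl1, which had at most 5 reads in 9, 7, 7, 5, 4 and 3 HPRT knockdown libraries.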
